A study of Mus musculus with 6 samples.

Results

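The genes that build the Z-disc, the M-line, the costamere and the dystrophin complex of muscle fibres were examined in skeletal muscle of 6 mice, 3 labelled transgenic (TG) and 3 labelled wild type (WT). The group is a list of 29 genes named by function, and each gene is represented by its brightest probe set, judged on the mean of all arrays. All 29 were measured, out of 19938 genes tested. RNA was hybridised to Affymetrix MoGene arrays, 1 array per mouse, in a series titled for SOCS-3, a suppressor of cytokine signalling. The labels state neither the transgene, its promoter, the strain, the age and sex of the mice nor the muscle taken, so what the TG mice carry is known here only by that title. Expression is given in log2 units as deposited, where a difference of 1 is a doubling.

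A muscle fibre pulls along sarcomeres that are joined end to end at Z-discs, where alpha-actinin crosslinks actin filaments of neighbouring units. Myosin filaments are held in register at the M-line in the middle of the sarcomere, and titin spans from one structure to the other. Costameres tie the outermost Z-discs to the membrane, and the dystrophin complex connects the actin cytoskeleton there, through dystroglycan, to laminin outside the fibre. Loss of many of these proteins causes muscular dystrophy or myopathy, and several Z-disc and titin-linked proteins are induced by stretch or load.

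The arrays carried the expression of skeletal muscle. All 12 skeletal muscle markers lay above the median level of all genes, 6.42, with means between 12.02 and 14.59, while 2 of 9 cardiac markers did, with means from 5.30 to 8.42. Array medians lay between 5.98 and 6.04, and Pearson correlations across genes were 0.9943 to 0.9960 over all pairs of arrays, within and between groups. Socs3 averaged 7.15 ± 0.09 in TG, against 7.41 ± 0.03 in WT (SD, 3 mice per group), and whether its probe set would read a transgene's RNA is not stated by the labels. The tissue is a mixture of cells, so fewer cells of a type and less RNA per cell cannot be told apart. The other marker lists gave median differences, TG minus WT, of -0.02 for fast fibre, -0.07 for slow fibre, -0.08 for cardiac muscle, -0.05 for smooth muscle and pericyte and -0.08 for endothelial genes. The medians were 0.12 for fibroblast, 0.10 for macrophage, 0.17 for adipocyte and 0.41 for bone and osteoclast genes. They were -0.04 for satellite cell, -0.12 for nerve, -0.13 for tendon and -0.61 for hepatocyte genes, and -0.01 for the skeletal muscle markers. The bone and osteoclast genes averaged 6.83, 6.31 and 5.97 in TG mice 1 to 3 and 6.02, 5.82 and 6.10 in WT. TG mouse 1 was thus the highest, and TG mouse 3 was below WT mice 1 and 3. Hepatocyte levels on each array are given below.

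No member passed the test between TG and WT. Of the 29 genes, 0 had an adjusted p under 0.05 (limma, smallest adjusted p = 0.791), where 0.00502% of all genes did. At an unadjusted p under 0.05 there were also 0 members, where 6.75% of all genes lay. The TG values were higher in 17 members and lower in 12, with a median difference of 0.014 for the members and -0.016 for all genes. For 24 of the 29 the difference was smaller than 0.1 in either direction. The 95% interval of the difference lay within a 1.5-fold change for 25 members, as it did for 94.4% of all genes. The 4 with wider intervals were Ankrd1, Xirp1, Csrp3 and Flnc. All 3 TG arrays lay above all 3 WT arrays for 1 member, Myom1, where 4.52% of all genes did, and all TG arrays lay below for 0 members, where 7.76% did.

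**Figure D1:**
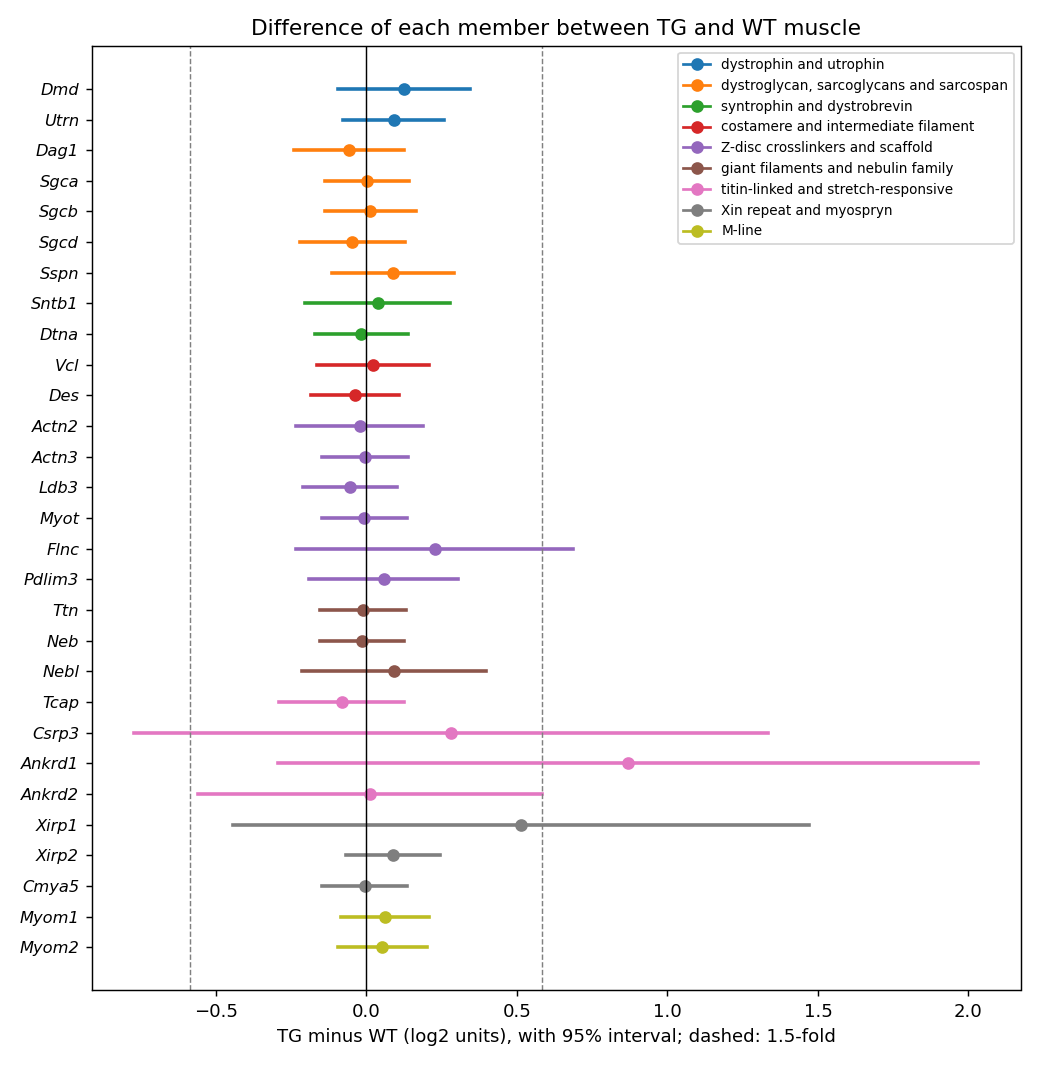
Difference between TG and WT muscle for each of the 29 genes (log2 units, TG minus WT, horizontal axis), with 95% intervals from limma and genes down the page by role. Most points sit within 0.1 of zero, while Ankrd1, at 0.87, Xirp1, at 0.51, Csrp3 and Flnc have intervals that cross a dashed line, which marks a 1.5-fold change.

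Both dystrophin-type genes had slightly higher TG means, within the error of the test. Dmd encodes dystrophin, the rod-like protein that ties actin to the membrane complex. Its values were 10.20, 10.45 and 10.31 in TG muscle, against 10.13, 10.34 and 10.12 in WT muscle. The groups overlapped, with TG mice 1 and 3 below WT mouse 2, and the difference was 0.12 (SE 0.09, 95% interval -0.09 to 0.34; limma, adjusted p = 0.815). Utrn encodes utrophin, the dystrophin relative that is concentrated at neuromuscular junctions in adult fibres. It averaged 8.18 ± 0.10 in TG, against 8.09 ± 0.02 in WT (SD, 3 mice per group), a difference of 0.09 (SE 0.07; limma, adjusted p = 0.825). Its TG mouse 3, at 8.07, was the lowest of the 6 arrays.

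The transmembrane members gave 3 values above and 2 below zero, all under 0.1 in size. Dag1 encodes dystroglycan, the laminin receptor of the complex. It stood at 9.85, 9.82 and 9.87 in TG and at 9.78, 10.02 and 9.90 in WT. The TG values lay inside the range of the WT values, and the difference was -0.06 (SE 0.08; limma, adjusted p = 0.900). Among the sarcoglycans, which form a subcomplex beside dystroglycan, Sgca differed by 0.002, Sgcb by 0.014 and Sgcd by -0.05. Sgca was the steadiest member, with values from 11.707 to 11.726 in TG and 11.713 to 11.720 in WT. Sspn, which encodes sarcospan, a small membrane protein bound to the sarcoglycans, differed by 0.09 (SE 0.09).

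On the cytoplasmic side, Sntb1 encodes beta-1-syntrophin, an adaptor that binds dystrophin and signalling proteins. It was at 6.83, 6.77 and 6.91 in TG and at 6.92, 6.89 and 6.58 in WT, with WT mouse 3 the lowest and the groups overlapping. The difference was 0.04 (SE 0.10; limma, adjusted p = 0.959). Dtna, which encodes alpha-dystrobrevin, a dystrophin-related scaffold of the syntrophins, differed by -0.02 (SE 0.07). At the costamere, Vcl encodes vinculin, which couples actin to integrin adhesions. Its values were 9.28, 9.34 and 9.17 in TG and 9.15, 9.25 and 9.33 in WT, which overlap over most of their range, for a difference of 0.02 (SE 0.08; limma, adjusted p = 0.971). Des, which encodes desmin, the intermediate filament that links neighbouring Z-discs, was at 12.85 ± 0.01 in TG, against 12.89 ± 0.05 in WT (SD, 3 mice per group), a difference of -0.04.

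Of the 6 Z-disc crosslinkers and scaffold genes, 2 had differences above zero, and within-group SDs were 0.021 for Myot, 0.026 for Actn3, 0.052 for Ldb3, 0.115 for Actn2, 0.147 for Pdlim3 and 0.317 for Flnc. Actn2 encodes alpha-actinin-2, present in all fibres, and was at 12.98, 13.16 and 13.04 in TG and at 12.98, 13.03 and 13.24 in WT. Its groups covered nearly the same range, and the difference was -0.02 (SE 0.09; limma, adjusted p = 0.975). Actn3, the alpha-actinin of fast fibres, differed by -0.004 (95% interval -0.15 to 0.14). Ldb3, which encodes the PDZ-LIM protein ZASP (Cypher), differed by -0.05, and Myot, which encodes the actin-bundling protein myotilin, by -0.007. Pdlim3 encodes the alpha-actinin-associated LIM protein, and differed by 0.06 (SE 0.11).

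Ttn and Neb stood near the top of the scale. Ttn encodes titin, the spring that runs from Z-disc to M-line, and was at 13.58, 13.62 and 13.59 in TG and at 13.63, 13.62 and 13.57 in WT. The groups overlapped, with a difference of -0.01 (SE 0.06; limma, adjusted p = 0.984). Neb, which encodes nebulin, the protein that lies along the thin filament, differed by -0.01 and had a within-group SD of 0.012. Nebl encodes nebulette, the nebulin relative known chiefly from heart. Its mean of 5.34 was below the median level of all genes, and it was the only member there. It differed by 0.09 (SE 0.13), and its second probe set by -0.02. Of the 29 members, 14 had means over 12, in a table whose highest value was 15.1. Whether differences are compressed near the top of the scale was not tested.

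Both M-line members were slightly higher in TG, within the error of the test. Myom1 and Myom2 encode myomesins, which crosslink myosin filaments. Myom1 was at 12.802, 12.835 and 12.892 in TG and at 12.770, 12.776 and 12.796 in WT. The 3 TG arrays were thus above the 3 WT arrays, by a narrow margin, and the difference was 0.06 (SE 0.06, 95% interval -0.08 to 0.21; limma, adjusted p = 0.867). Myom2 differed by 0.05 (SE 0.06), with WT mouse 2 above TG mouse 1. Myom3, a myomesin gene that is not a member and is named after its values were seen, differed by 0.002 (SE 0.11).

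The spread between mice of the same group was uneven over the members. Within-group SD, pooled over TG and WT, exceeded 0.3 for 5 of the 29 members, namely Ankrd1, Csrp3, Xirp1, Ankrd2 and Flnc, where 2.89% of all genes exceeded it. The other 24 had SDs of at most 0.196, and 17 lay under 0.1. These 5 were singled out after their values were seen, and the values are given as a description.

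**Figure D2:**
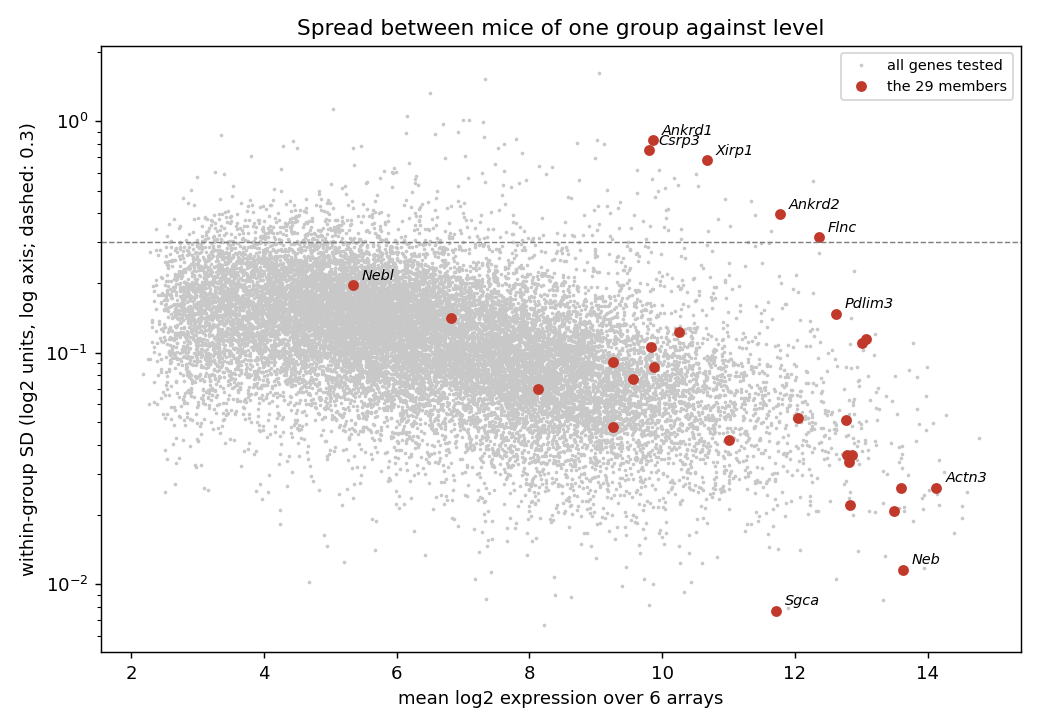
Within-group SD (log2 units, log axis) against mean log2 expression over 6 arrays for all genes tested (grey) and for the 29 members (red). Ankrd1, Csrp3, Xirp1, Ankrd2 and Flnc lie above the dashed line at 0.3, and Sgca and Neb lie at the lower edge of the cloud.

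Ankrd1 encodes the cardiac ankyrin repeat protein CARP, which binds titin and is induced in muscle by stretch and injury. Its values were 10.53, 11.09 and 9.26 in TG muscle and 8.66, 9.54 and 10.07 in WT muscle. TG mice 1 and 2 were above every WT mouse, whereas TG mouse 3 was below WT mice 2 and 3. The lowest and highest arrays differed 5.38-fold. The mean was 10.29 ± 0.94 in TG, against 9.42 ± 0.71 in WT (SD, 3 mice per group), a difference of 0.87, or 1.83-fold (SE 0.50, 95% interval -0.29 to 2.03; limma, adjusted p = 0.791). It was the only member with a difference over 1.5-fold, a size that 0.1% of all genes reached with TG higher. Without TG mouse 2 the difference was 0.47, and without TG mouse 3 it was 1.38.

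Ankrd2 encodes the relative of CARP that is also stretch-responsive and binds the same region of titin. It was at 11.69, 12.17 and 11.48 in TG and at 11.44, 11.60 and 12.27 in WT. TG mouse 2 and WT mouse 3 stood above the other 4 mice, and the groups overlapped fully. The difference was 0.01 (SE 0.24, 95% interval -0.56 to 0.58; limma, adjusted p = 0.995), and it ranged from -0.18 without TG mouse 2 to 0.26 without WT mouse 3.

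Csrp3 encodes muscle LIM protein, a Z-disc protein implicated in sensing load. It was at 9.69, 10.64 and 9.51 in TG and at 9.20, 9.13 and 10.67 in WT. Again TG mouse 2 and WT mouse 3 were high, and these 2 mice, from opposite groups, had nearly the same value. The difference was 0.28 (SE 0.45, 95% interval -0.77 to 1.34; limma, adjusted p = 0.923), and it ranged from -0.07 without TG mouse 2 to 0.78 without WT mouse 3. Tcap encodes telethonin, the cap of titin at the Z-disc, and did not follow these genes. It was at 12.99, 12.82 and 13.09 in TG and at 13.05, 13.12 and 12.97 in WT, with its lowest value in TG mouse 2, for a difference of -0.08 (SE 0.09; limma, adjusted p = 0.875).

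Xirp1 encodes Xin, an actin-binding repeat protein that accumulates at damaged or remodelling myofibrils. It was at 11.02, 11.66 and 10.11 in TG and at 9.85, 10.41 and 10.99 in WT. TG mouse 2 was the highest and WT mouse 1 the lowest, and TG mouse 3 lay below WT mice 2 and 3. The difference was 0.51 (SE 0.41, 95% interval -0.44 to 1.47; limma, adjusted p = 0.825), and it ranged from 0.15 without TG mouse 2 to 0.92 without TG mouse 3. Its relative Xirp2 was steady by comparison, with a within-group SD of 0.051 against 0.680 for Xirp1, and differed by 0.09 (SE 0.07). Cmya5, which encodes myospryn, a large scaffold at the costamere, differed by -0.005 (SE 0.06).

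Flnc encodes filamin C, the actin crosslinker of Z-discs and costameres, which is recruited to myofibril lesions with Xin. It was at 12.46, 12.81 and 12.15 in TG and at 11.92, 12.31 and 12.51 in WT. TG mouse 2 and WT mouse 3 were again the highest of their groups, and TG mouse 3 lay below WT mice 2 and 3. The difference was 0.23 (SE 0.20, 95% interval -0.24 to 0.69; limma, adjusted p = 0.843), and it ranged from 0.06 without TG mouse 2 to 0.39 without TG mouse 3. Pdlim3, also shown because of its values, had the same order with a smaller spread, at 12.67, 12.71 and 12.56 in TG and 12.41, 12.56 and 12.80 in WT.

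**Figure D3:**
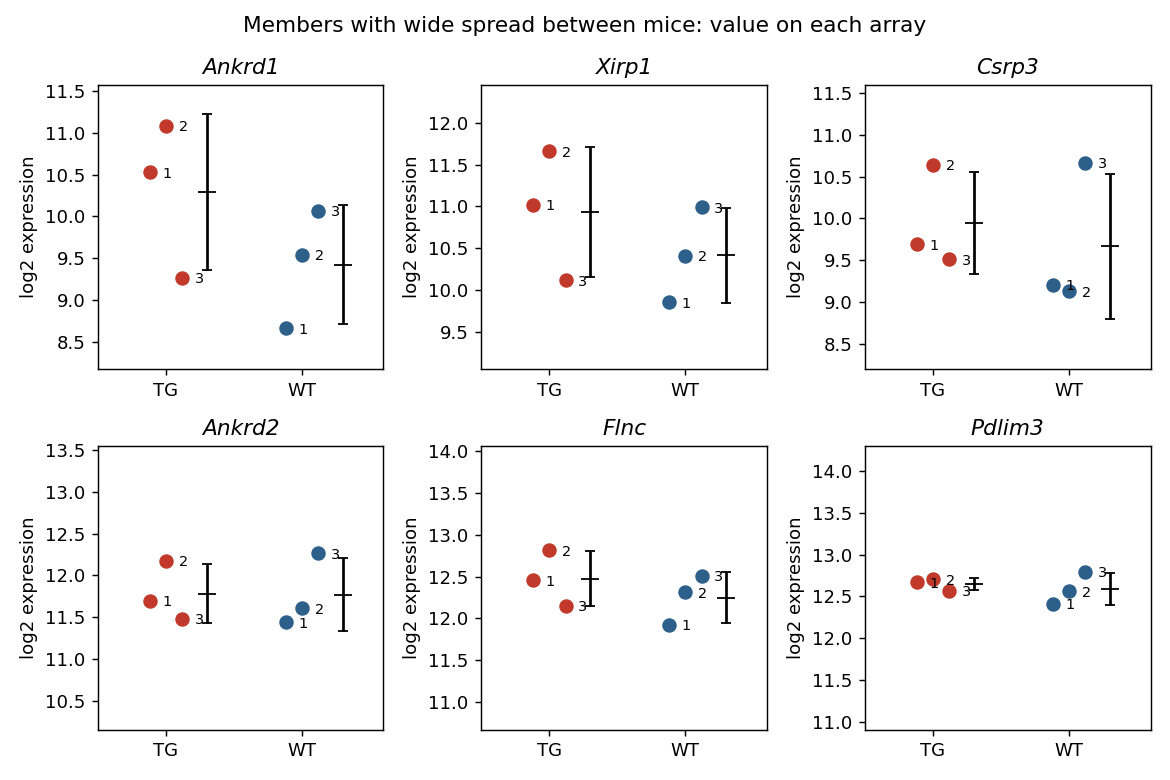
Log2 expression on each array (points, numbered by mouse) with the mean and SD of each group (black bars) for 6 genes, TG in red and WT in blue, each panel spanning the same number of log2 units. TG mouse 2 and WT mouse 3 are the highest of their groups in all 6 genes, and TG and WT overlap in each.

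An order of mice recurred in part of the members. In 7 of the 29 members TG mouse 2 was above TG mouse 1 and TG mouse 1 above TG mouse 3, and WT mouse 3 was above WT mouse 2 and WT mouse 2 above WT mouse 1, where 3.51% of all genes had that order. These were Ankrd1, Ankrd2, Xirp1 and Flnc, which are 4 of the 5 most variable members, and Pdlim3, Vcl and Ldb3, whose spread was smaller. Csrp3 did not have it in full, since its WT mouse 1 was above WT mouse 2. TG mouse 2 and WT mouse 3 were the highest of their groups in 9 members, which adds Csrp3 and Actn2, where 15.2% of all genes had this. The order was noticed in these same values, so the counts describe these 6 mice and test nothing.

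**Figure D4:**
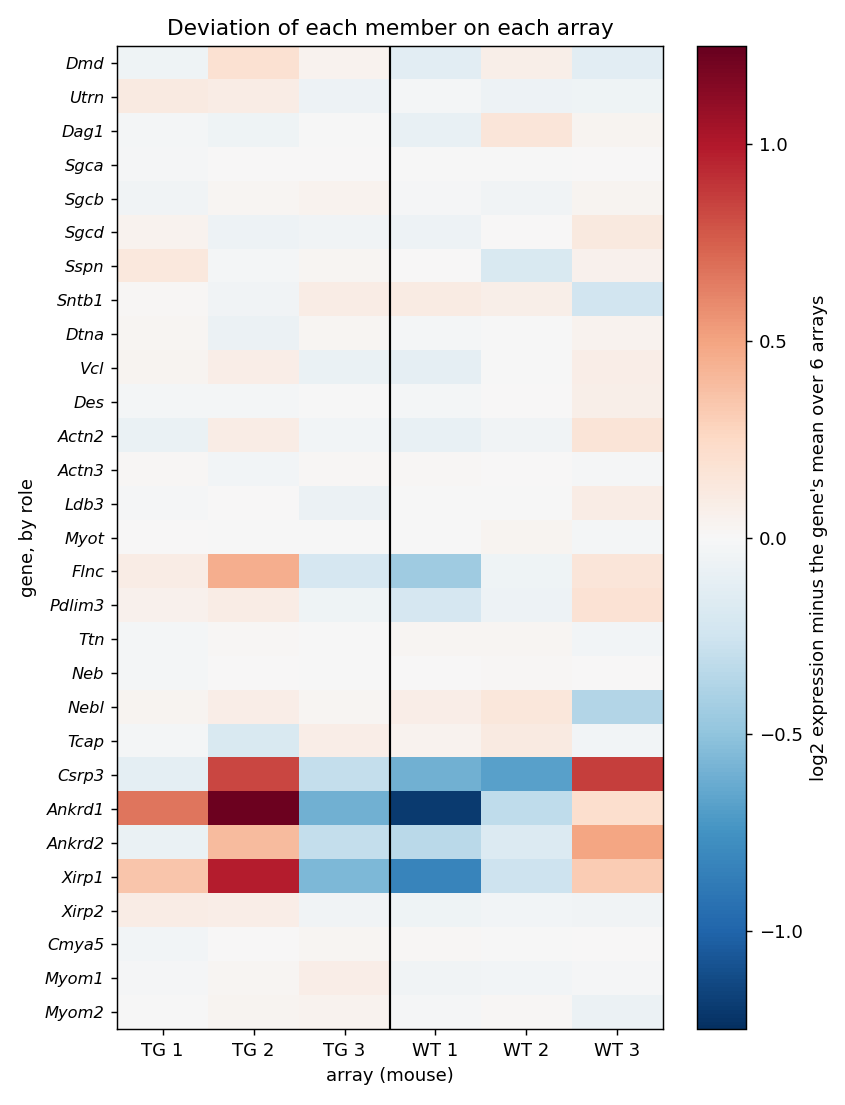
Log2 expression of each member on each array minus that gene's mean over the 6 arrays (colour), TG mice left of the vertical line and WT mice right of it, genes down the page by role. The strongest colours are those of Csrp3, Ankrd1, Ankrd2, Xirp1 and Flnc, with red in TG mouse 2 and WT mouse 3. These genes are blue in WT mouse 1 and TG mouse 3. Ankrd1 and Xirp1 are also red in TG mouse 1, and Csrp3 is bluest in WT mouse 2.

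The mean level of hepatocyte transcripts, which do not belong to muscle, had the same order within each group, but not over all mice. The mean level of the 8 measured hepatocyte genes was 6.66, 8.08 and 5.71 in TG and 7.02, 7.59 and 7.73 in WT. TG mouse 1 was thus below every WT mouse in this mean. Among the 5 most variable members, TG mouse 1 was above every WT mouse for Ankrd1 and Xirp1. For Csrp3, Ankrd2 and Flnc it was below WT mouse 3 and above WT mice 1 and 2. Of the 8 hepatocyte genes, 5 had the order given above within both groups. Alb, which encodes albumin and was singled out after its values were seen, was at 8.70, 10.67 and 6.29 in TG and 8.99, 9.48 and 10.19 in WT. The part of these transcripts in the spread of the variable genes was not tested. Mean levels of the 99 related genes described below also had the order within each group. They were 9.62, 9.65 and 9.58 in TG and 9.58, 9.60 and 9.66 in WT. This range was much narrower than that of the hepatocyte genes. Singly, 11 of the 99 genes had the order, where 3.51% of all genes did. Not every list among them had the order in its mean levels, since the dystroglycan glycosylation enzymes were at 8.17, 8.17 and 8.19 in TG. The other costamere and integrin adhesion genes, at 9.505, 9.519 and 9.516 in TG, did not have it either. Nor did the other M-line and titin-linked genes, at 10.76, 10.75 and 10.69 in TG. The 9 slow fibre markers did not share that order, with mean levels of 7.91, 7.73 and 7.78 in TG and 7.99, 7.79 and 7.94 in WT. The 9 macrophage markers averaged 6.66, 6.64 and 6.40 in TG and 6.33, 6.43 and 6.23 in WT, so that TG mouse 2 was high for them and WT mouse 3 was not.

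The sequences upstream of the 4 most variable genes with a RefSeq entry (build GRCm38.p6) are shown with that of Sgca, the steadiest member, because these genes mark the ends of the range of spread between mice. Each line gives the 250 bases before the gene's first listed start, 5′ to 3′ on the gene's strand. Capitals mark the MCAT motif, CATTCC on either strand, which TEAD factors bind.
Ankrd1 (chr19:36119845-36120094, minus strand): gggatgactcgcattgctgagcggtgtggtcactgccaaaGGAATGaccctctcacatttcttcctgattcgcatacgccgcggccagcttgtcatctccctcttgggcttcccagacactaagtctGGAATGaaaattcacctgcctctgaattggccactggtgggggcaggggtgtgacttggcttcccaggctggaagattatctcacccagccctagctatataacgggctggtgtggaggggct
Csrp3 (chr7:48848052-48848301, minus strand): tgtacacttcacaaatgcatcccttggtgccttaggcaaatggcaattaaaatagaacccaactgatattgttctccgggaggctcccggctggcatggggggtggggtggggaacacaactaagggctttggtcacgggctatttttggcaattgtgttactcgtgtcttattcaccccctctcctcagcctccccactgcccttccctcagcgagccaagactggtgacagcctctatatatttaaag
Ankrd2 (chr19:42035777-42036026, plus strand): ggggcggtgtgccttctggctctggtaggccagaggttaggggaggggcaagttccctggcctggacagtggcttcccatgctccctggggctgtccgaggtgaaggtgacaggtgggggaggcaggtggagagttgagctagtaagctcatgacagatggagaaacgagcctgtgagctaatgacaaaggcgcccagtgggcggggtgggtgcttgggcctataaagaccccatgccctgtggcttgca
Flnc (chr6:29432903-29433152, plus strand): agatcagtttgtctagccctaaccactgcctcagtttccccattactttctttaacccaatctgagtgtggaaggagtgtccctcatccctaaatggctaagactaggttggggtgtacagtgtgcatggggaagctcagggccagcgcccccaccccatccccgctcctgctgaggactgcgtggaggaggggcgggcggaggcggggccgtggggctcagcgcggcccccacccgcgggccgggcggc
Sgca (chr11:94976328-94976577, minus strand): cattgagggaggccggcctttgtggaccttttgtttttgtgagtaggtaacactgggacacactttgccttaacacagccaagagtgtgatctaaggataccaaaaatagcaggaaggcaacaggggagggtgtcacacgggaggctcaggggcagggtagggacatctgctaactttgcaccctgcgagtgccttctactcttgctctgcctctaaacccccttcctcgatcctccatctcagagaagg
The MCAT motif was found 2 times upstream of Ankrd1, with its first base 210 and 123 bases before the start, and 0 times in the other 4 sequences.

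Promoter sequences were found for 21 of the 29 members, and those of Actn3, Dtna, Myom2, Myot, Neb, Sntb1, Tcap and Xirp1 were not analysed here. MCAT occurred in 6 of the 21, namely Ankrd1, Nebl, Pdlim3, Sgcd, Sspn and Vcl, and in 12.6% of all 32851 promoters. The E-box CANNTG, bound by myogenic factors, occurred in 16 of the 21 and in 66.2% of all promoters. The CArG box, bound by serum response factor, occurred upstream of Dmd, Ldb3, Myom1 and Vcl, and in 1.47% of all promoters. The MEF2 motif occurred upstream of Dmd, Ttn and Xirp2, and in 1.69% of all promoters. Both strands were searched, overlapping motifs were each counted, and a match in this window is a description of its letters.

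The other genes of the same structures also gave no call. Of 99 measured genes in 6 lists, 0 had an adjusted p under 0.05, and at an unadjusted p under 0.05 there were 1 with higher and 3 with lower TG values, where 6.75% of all genes lay. All 3 TG arrays were above all 3 WT arrays for 5 of the 99, where 4.52% of all genes had this, and below them for 7 of the 99, where 7.76% had it. These counts are near those shares, so the genes named below are single values and not a result about the lists. Differences were above zero for 47 and below for 52, with a median of -0.004. Among 13 partners of the dystrophin complex the median was -0.01, with 6 above zero. Cav3 encodes caveolin-3, the muscle caveolin that binds dystroglycan, and was at 8.87, 8.81 and 8.76 in TG and at 8.95, 8.96 and 9.03 in WT. Each TG mouse was lower than each WT mouse, with a difference of -0.17 (SE 0.07; limma, adjusted p = 0.738). Dtnb, which encodes beta-dystrobrevin, also had TG below WT on every array, with a difference of -0.24 (SE 0.09; limma, adjusted p = 0.738). The 13 enzymes of dystroglycan glycosylation had 10 values above zero and a median of 0.05, none larger than 0.1, with B4gat1 at 0.08 and Dpm1 at 0.06. The 23 other costamere and integrin adhesion genes had 9 above zero and a median of -0.009, with the talin gene Tln2 at -0.09 and the paxillin gene Pxn at -0.08.

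Among 26 other Z-disc genes, 11 were above zero and the median was -0.01. Myoz2 encodes calsarcin-1, the calcineurin-binding Z-disc protein of slow and cardiac muscle. It was at 9.30, 9.24 and 9.13 in TG and at 9.52, 9.48 and 10.23 in WT. Every TG array was below every WT array, and WT mouse 3 stood apart from the other WT mice, for a difference of -0.52 (SE 0.19; limma, adjusted p = 0.725). Palld, the palladin gene, was at -0.17 (SE 0.09). In the same list the small heat shock protein gene Hspb1, singled out after its values were seen, was at 10.93, 11.48 and 10.51 in TG and 10.50, 10.70 and 10.94 in WT. That is the order within each group seen for Ankrd1, which 7 of the 26 genes of this list had, where 3.51% of all genes did. The other 6 were Bag3, Cryab, Csrp1, Fhod3, Hspb8 and Pdlim1, with differences from -0.07 to 0.14. Each remaining list had 1 gene with the order, apart from the dystroglycan glycosylation enzymes, which had 0. The order was noticed in these same values, so the count tests nothing.

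The 16 other M-line and titin-linked genes had 7 above zero and a median of -0.008. Mybpc1 encodes slow-type myosin binding protein C, a protein of the thick filament. It was at 13.344, 13.324 and 13.343 in TG and at 13.060, 13.065 and 13.108 in WT. The groups were far apart for their spread, with a difference of 0.26 (SE 0.06), and the value did not pass over all genes (limma, adjusted p = 0.627). Its relative Mybph was at 0.53 (SE 0.31), with TG mouse 1, at 10.21, well above the other 5 mice. The 10 thin filament capping and nebulin-linked genes had 5 values above zero and a median of 0.01, with the leiomodin gene Lmod2 at 0.19 (SE 0.12) and Kbtbd13 at -0.12. Klhl40, which encodes a stabiliser of nebulin and was singled out after its values were seen, was at 9.60, 9.95 and 8.92 in TG and 8.91, 9.15 and 9.49 in WT. It was the 1 gene of those 10 with the order within both groups seen for Ankrd1.

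**Figure D5:**
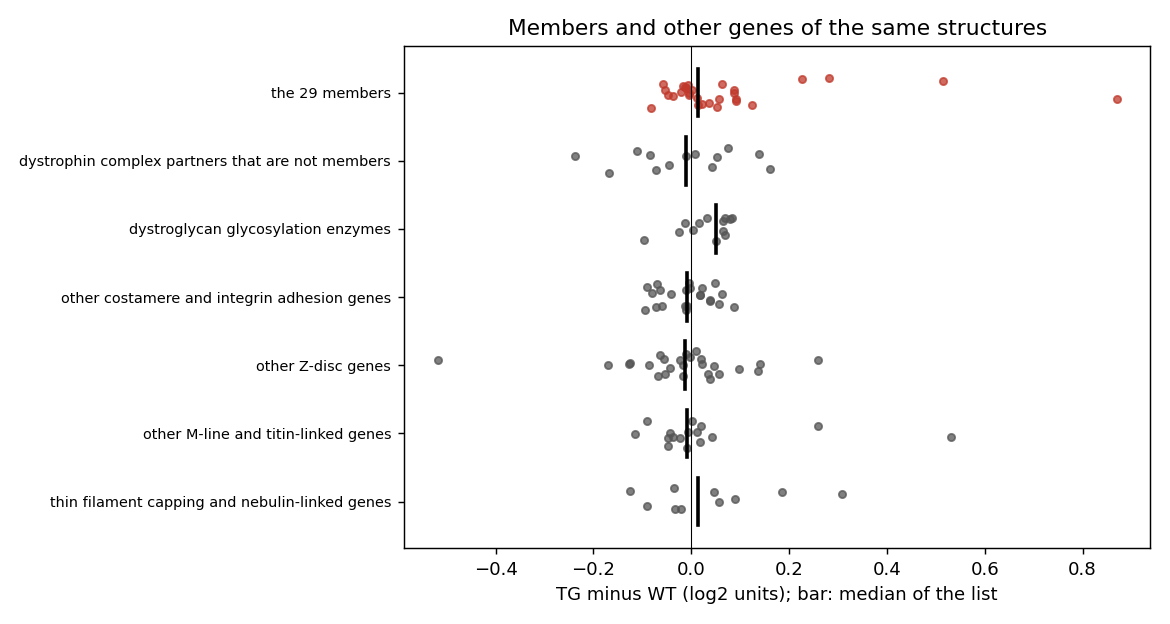
Difference between TG and WT (log2 units, TG minus WT, horizontal axis) for each gene of the 29 members (red) and of the 6 lists of other genes of the same structures (grey), with the list's median as a bar. Medians lie between -0.01 and 0.05, and the points far from zero are single genes: Ankrd1 at 0.87, Mybph at 0.53, Xirp1 at 0.51 and Myoz2 at -0.52.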

How the data were processed

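Per the labels' protocols, RNA was extracted from frozen muscle with Trizol, cleaned on RNeasy columns and biotin-labelled. The values used are the authors' deposited log2 expression levels, in 1 table of 35557 probe sets by 6 arrays. Its scale was read from the values (1.41 to 15.1). The table, with its normalisation steps not given in the sources used here, was used as deposited and 0 columns were left out. Gene symbols came from the platform annotation: 21789 probe sets had 1 symbol and were used, 1621 several and 12147 none. Of the members 28 had 1 probe set and Nebl had several. No probe set with several symbols held a member.

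All 19938 genes were fitted together with lmFit and eBayes of limma 3.58.1 (R 4.3.3), two-sided, with Benjamini-Hochberg adjustment over all genes and a threshold of 0.05. Moderation draws each gene's SE toward the typical spread, so the SEs of very steady genes exceed their own spread. Intervals are at 95%, and differences are TG minus WT. Mice are numbered within a group in deposit order, which pairs no animals. The labels name 1 common date and no batch, so no within-batch value was possible. The precision is limited by 3 arrays per group. The members, the 6 lists of related genes and the 14 marker lists were chosen with earlier results of these data known. Values on every array were planned for members with an unadjusted p under 0.05 or without overlap and for the first member of each of 9 roles, and up to 2 genes of each other list by smallest p were planned to be named. Any other gene shown on every array, and each Z-disc gene named for its order of mice, was chosen after its values were seen. The steps were tested on simulated data. Figures were drawn with matplotlib 3.10.9. Promoters are RefSeq's, build GRCm38.p6.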

Additional observations from a re-analysis of the deposited data

How the results depend on the processing

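No member passed the threshold under any of 14 alternative fits, with a lowest adjusted p of 0.557 (limma), nor when calls were made at an unadjusted p under 0.01 and at least 1.5-fold. The count at an unadjusted p under 0.05 was 0 in each alternative except without TG mouse 3, where Ankrd1 and Xirp1 made it 2, and without WT mouse 3, where Csrp3 made it 1, so it ranged from 0 to 2 when 1 mouse was left out. The members' median difference ranged from 0.0012 (without TG mouse 3) to 0.040 (without TG mouse 1) over the mice left out, and from 0.0050 to 0.033 under the others. Over all genes 1 passed, namely Casp12, against 7 with an intensity trend, 0 with robust moderation, 0 with a common array median, 2 among genes above the median level, 0 without any 1 mouse and 31 under the unadjusted rule. Nebl has no value among genes above the median level.

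Setting arrays to a common median gave a median of 0.0035 over all genes, against -0.016 as deposited, and turned the sign of 6 near-zero members, to 0.0031 for Dtna, 0.016 for Actn3, 0.013 for Myot, 0.0091 for Ttn, 0.0058 for Neb and 0.015 for Cmya5. Leaving out 1 mouse at a time turned the sign of 16 members, whose differences ranged from -0.12 to 0.0020 for Dag1, -0.0013 to 0.0081 for Sgca, -0.0035 to 0.040 for Sgcb, -0.088 to 0.0036 for Sgcd, -0.071 to 0.099 for Sntb1, -0.035 to 0.017 for Dtna, -0.026 to 0.070 for Vcl, -0.071 to 0.056 for Actn2, -0.014 to 0.014 for Actn3, -0.019 to 0.0092 for Myot, -0.032 to 0.16 for Pdlim3, -0.029 to 0.00030 for Ttn, -0.067 to 0.18 for Nebl, -0.067 to 0.78 for Csrp3, -0.18 to 0.26 for Ankrd2 and -0.019 to 0.010 for Cmya5. For the other 12 members, Dmd, Utrn, Sspn, Des, Ldb3, Flnc, Tcap, Ankrd1, Xirp1, Xirp2, Myom1 and Myom2, the sign held in every alternative run, but the size did not. Leaving out 1 mouse, their differences ranged from 0.059 (without TG mouse 2) to 0.19 (without WT mouse 2) for Dmd, 0.058 to 0.15 (without TG mouse 3) for Utrn, 0.016 (without WT mouse 2) to 0.14 for Sspn, -0.059 to -0.0091 (without WT mouse 3) for Des, -0.072 to -0.020 (without WT mouse 3) for Ldb3, 0.056 to 0.39 for Flnc, -0.15 (without TG mouse 3) to -0.0095 (without TG mouse 2) for Tcap, 0.47 to 1.38 for Ankrd1, 0.15 to 0.92 for Xirp1, 0.065 to 0.13 for Xirp2, 0.038 (without TG mouse 3) to 0.083 for Myom1 and 0.028 (without WT mouse 3) to 0.073 for Myom2. The cause was not tested for any of these turns. No paired analysis was possible because the replicate numbers follow deposit order and the labels pair no animals. Raw probe intensities were not used here, so signal over background was not assessed.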
